A study of Oncorhynchus mykiss with 6 samples.

Results

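The miR-17-92 cluster and its paralogues were followed in small RNA sequencing of rainbow trout (Oncorhynchus mykiss) liver. Members were chosen by name from the deposited miRNA table: every row, which is 1 sequence, whose name holds miR-17, miR-18, miR-19, miR-20, miR-25, miR-92, miR-93, miR-106 or miR-363, with any letter, arm, length variant and fish prefix. This gave 58 of the 1427 rows. The livers came from juvenile wild type trout, listed under the strain name Walbaum, and 3 libraries were made from control fish and 3 from fish fasted for 4 days. The control libraries are numbered 3, 4 and 6 and the fasted libraries 3, 4 and 5. No label says that each library is a separate fish, so p-values rest on a spread between libraries that may be technical alone. A library held between 737686 and 4203708 counts in the table, or 15.1 to 61.0% of its mappable reads, with the lowest share in fasted replicate 3. The hepatocyte miRNA miR-122 took 35.1 to 42.6% of the counts of a library. Because whole liver was sequenced, fewer cells of a type and less RNA per cell cannot be told apart.

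A miRNA is cut from a hairpin and guides a silencing complex to messenger RNAs, mostly by pairing of its seed, bases 2 to 8, with sites in their 3' untranslated regions. In mammals miR-17, miR-18a, miR-19a, miR-20a, miR-19b and miR-92a are cut from one primary transcript, which MYC and E2F factors induce. Paralogous clusters give miR-106b, miR-93 and miR-25, from an intron of the replication gene MCM7, and miR-106a, miR-18b, miR-20b and miR-363. The clusters are known for promoting proliferation and survival, with the cell cycle inhibitor CDKN1A among the known targets of the miR-17 seed and the death factor BCL2L11 among those of several members. In mammalian liver they are studied in regeneration and liver cancer.

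The members fall into 4 families, whose seed 31 of the 37 rows of the main arm carry, and sequences that the results below turn on are shown because the families differ in what they can pair with while members within a family differ mostly outside the seed. Sequences are from the deposited table, 5′ to 3′, with T for U and bases 2 to 8 in capitals.
ssa-miR-17-5p_R-1: cAAAGTGCttacagtgcaggta
ssa-miR-106a-5p: tAAAGTGCttacagtgcaggta
ssa-miR-20a-5p: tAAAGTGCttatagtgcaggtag
ssa-miR-93a-5p: aAAAGTGCtgtttgtgcaggtag
dre-miR-18b-5p_1ss11TC: tAAGGTGCatctagtgcagata
ssa-miR-18a-5p_R-1: tAAGGTGCatctagtgtagtt
dre-miR-19a-3p_L+1R-2: tTGTGCAAatctatgcaaaact
ssa-miR-19a-3p_R+1: tGTGCAAAtctatgcaaaactgt
ssa-miR-19c-3p_R-1: tGTGCAAAtccatgcaaaact
ssa-miR-19d-3p_R-1: tGTGCAAAcccaagcaaaact
ssa-miR-92a-3p: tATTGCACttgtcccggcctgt
dre-miR-92a-3p_R+1: tATTGCACttgtcccggcctgta
ssa-miR-92b-3p: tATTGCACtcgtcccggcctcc
dre-miR-25-3p: cATTGCACttgtctcggtctga

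The prefix names the fish whose entry matched (dre zebrafish, ssa Atlantic salmon), L and R give bases added or missing at the 5' and 3' end against it, and ss gives a base that differs. Counting from 1 at the 5' end, the sequences of miR-17-5p and miR-106a-5p differ by C1T over 22 bases, and those of miR-106a-5p and miR-20a-5p by C12T. miR-92a-3p and miR-92b-3p differ by T10C, G21C and T22C, and miR-92a-3p and miR-25-3p by T1C, C14T, C18T and T22A. miR-19a-3p and miR-19c-3p differ by T11C over 21 bases, and miR-19c-3p and miR-19d-3p by T9C and T13A. miR-18b-5p and miR-18a-5p differ by C17T and A20T over 21 bases. None of these differences lies in the seed. Of the values of the member rows, 32.8% were not whole numbers. How reads were divided between close sequences is not given, so single rows are less certain than their sums.

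The family of miR-25, miR-92 and miR-363 made up 78.5% of all member counts, the miR-19 family 14.9%, the family of miR-17, miR-20, miR-93 and miR-106 5.77% and the miR-18 family 0.797%. All members together were a small part of the liver repertoire, with 0.547% ± 0.083 of the table's counts in the controls and 0.975% ± 0.395 after fasting (SD, n = 3). After the scaling used below, which allows for differences in composition, they summed to 6701 ± 1517 and 8035 ± 3208 CPM, and the groups overlapped. Of the 58 rows, 37 come from the arm known as the main product (5p for the miR-17 and miR-18 families, 3p for the miR-19 and miR-25/92 families) and 21 from the other arm. The other arm held 14.9% of the counts of the miR-17 family, 3.04% of the miR-18, 0.626% of the miR-19 and 0.240% of the miR-25/92 family. Thus the miR-17 family was the one in which both arms were well represented. Enough counts for a test were found for 22 rows, which hold 99.4% of the member counts, and the other 36 rows had at most 96 counts each over the 6 libraries. Of these, 22 had under 10.

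Between the fasted and the control libraries no member passed the test. edgeR's quasi-likelihood test called 0 of the 22 members at a Benjamini-Hochberg adjusted p of 0.05, as it called 0 of all 309 tested rows (0%), and the lowest adjusted p of a member was 0.504. At an unadjusted p under 0.05 stood 1 member, ssa-miR-106a-5p, against 8.41% of all tested rows. DESeq2 called 0 members and 4 of the 309 rows (1.29%). The 3 fasted libraries lay entirely above the controls in 2 tested members, ssa-miR-106a-5p and ssa-miR-20a-3-3p_R-2, and entirely below in 1, dre-miR-19c-3p_1ss23GT. Of all tested rows 17.5% did not overlap, 8.74% lying above and 8.74% below. By family, values of log2 fold change above 0 were found for all 4 tested main-arm rows of the miR-17 family, the single one of miR-18, 3 of 6 of miR-19 and all 7 of miR-25/92, against 50.2% of all tested rows. The median over the 22 members was 0.24, against 0.012 over all tested rows. Without fasted replicate 4 only 12 of 22 members lay above 0, with a median of 0.020, and without control replicate 3 it was 13 of 23, with a median of 0.075 against 0.065 over all rows. Length variants of one miRNA are not separate observations, and when libraries were scaled by their totals alone all 22 members lay above 0 while the median of all tested rows moved from 0.012 to 0.59.

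The miR-17 seed family, which pairs through AAAGTGC, had values above the whole control range in all 3 fasted libraries, without passing the test. The 11 main-arm rows summed to 257, 362.6 and 317 CPM (counts scaled to a common total, with TMM factors that allow for differences in composition) in the controls, in the order of replicates 3, 4 and 6, and to 470, 449 and 446 CPM after fasting, in the order 3, 4 and 5, which holds for every list of values here. The fasted libraries were close to each other, at 455 ± 12.8 CPM, and the controls more spread, at 312 ± 52.9 CPM (SD, n = 3). As unscaled shares of the table's counts the fasted libraries were the more spread, at 0.0571% ± 0.0185 against 0.0257% ± 0.0040. They were still all above the controls. On that scale the main-arm miR-18 rows separated too, at 0.0039 to 0.0046% in the controls and 0.0058 to 0.0095% after fasting. So did the other arms of the miR-17, miR-19 and miR-25/92 families, while the main arms of miR-19 and miR-25/92 overlapped. With library totals the median log2 fold change of all tested rows was 0.59. To test the miR-17 seed, the counts of the whole table were summed by seed, 99.9% of those with AAAGTGC being members. The 202 seeds with enough counts were fitted and scaled anew. The log2 fold change of this seed was 0.53 (95% interval -0.20 to 1.25), with an edgeR adjusted p of 0.529. Of all tested seeds 0 (0%) were called by edgeR, 18 (8.91%) had an unadjusted p under 0.05, 16.8% had groups that did not overlap and 7.43% lay above every control. DESeq2 called 3 seeds (1.49%), this one not among them (adjusted p = 0.747). Leaving out any 1 library gave values between 0.36 and 0.71, and scaling by library totals alone gave 1.15.

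**Figure D1:**
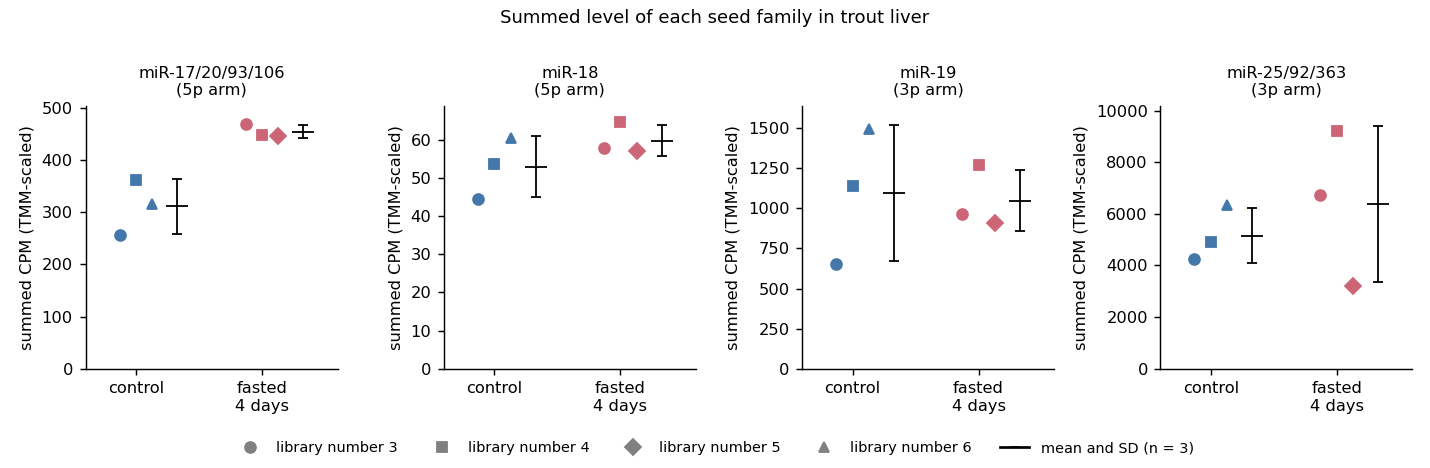
Summed CPM of the main-arm rows of each seed family (y axes, from 0) in control and fasted liver; each symbol is a library, and the black bar and whiskers are mean and SD. The miR-17 family lies at 257 to 362.6 CPM in the controls and 446 to 470 CPM in fasted libraries. The groups of the other families overlap on this scale.

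Within this family miR-106a-5p and miR-17-5p had the larger differences, and miR-20a-5p and miR-93a-5p the smaller. ssa-miR-106a-5p, whose human counterpart is encoded in a paralogous cluster on the X chromosome, had 17.8, 26.9 and 30.4 CPM in the controls and 57.1, 57.6 and 37.5 CPM after fasting. Every fasted value was above every control value, with fasted replicate 5 nearest to them. Its log2 fold change was 1.02 (SE 0.38, 95% interval 0.16 to 1.89), with an unadjusted edgeR p of 0.026 and an adjusted p of 0.504. These values rest on 22.45 to 97.45 counts per library. ssa-miR-17-5p_R-1, the founding member, had 83.9, 144.1 and 90.3 CPM in the controls and 213, 186 and 142.5 CPM after fasting. Control replicate 4 and fasted replicate 5 were nearly equal and made the groups overlap. Its log2 fold change was 0.77 (95% interval -0.06 to 1.599; edgeR adjusted p = 0.583). With 1 library left out the 2 rows ran from 0.81 to 1.34 and from 0.62 to 1.06.

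The other tested main-arm members of the family overlapped between the groups. ssa-miR-20a-5p, whose mammalian counterpart is cut from the same transcript as miR-17, had 94.2, 115 and 104 CPM in the controls and 112, 105 and 174 CPM after fasting. Only fasted replicate 5 was above the control range, and the log2 fold change was 0.32 (SE 0.34; edgeR adjusted p = 0.741). ssa-miR-93a-5p, whose mammalian counterpart lies in MCM7, had 57.2, 70.8 and 88.4 CPM in the controls and 81.0, 98.1 and 85.5 CPM after fasting, and its log2 fold change was 0.29 (SE 0.33; edgeR adjusted p = 0.785). miR-17 held 28.5 to 39.8% of the main-arm counts in control and 31.9 to 45.3% in fasted libraries, and miR-20 32.1 to 37.7% and 23.7 to 39.8%. In fasted replicate 5 miR-20 was the largest part, and in fasted replicates 3 and 4 miR-17 was. Joining all rows of a mature name over the whole table, with libraries scaled anew, gave miR-106a-5p a log2 fold change of 1.105 and miR-17-5p one of 0.87 (edgeR adjusted p = 0.423 and 0.508). Both names hold a single row, so only the new scaling and fit moved them. On this scale miR-17-5p had 142.4 CPM in control replicate 4 and 145.1 CPM in fasted replicate 5, and no longer overlapped. The median over all names was 0.12, against 0.012 over all rows. Above every control lay 3 of the 16 member names tested, miR-106a-5p, miR-17-5p and miR-20a-3-3p. Of all names 10% did so (16.8% did not overlap in either direction). Above 0 lay 14 of the member names, against 57.5% of all names. Without fasted replicate 4 only 8 of 17 member names lay above 0, and without control replicate 3 10 of 17. Of the 280 names tested so, edgeR called 0 (0%), 27 (9.64%) had an unadjusted p under 0.05, and DESeq2 called 5 (1.79%).

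**Figure D2:**
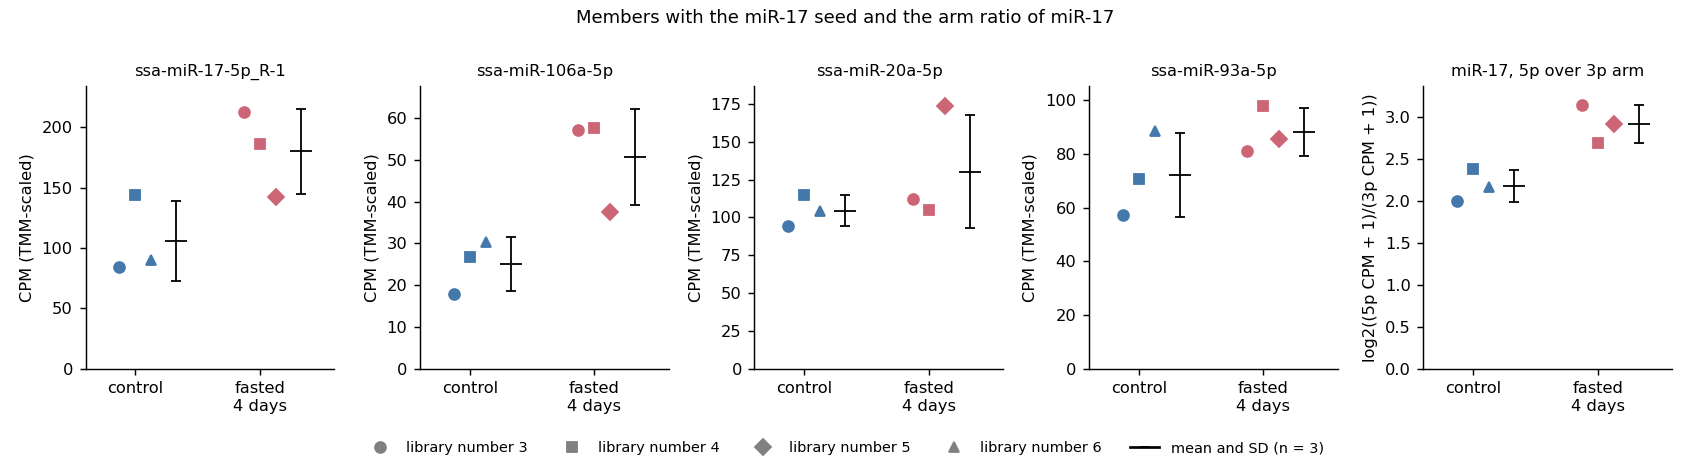
CPM of the 4 tested main-arm rows with the miR-17 seed by library, with mean and SD (n = 3). At the right is the log2 ratio of the arms of miR-17, and all y axes start from 0. All fasted libraries lie above all controls for ssa-miR-106a-5p and for the arm ratio, and the groups overlap for the other rows shown.

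The other arm of miR-17 had overlapping values in the 2 groups. ssa-miR-17-3p_R-1, which has another seed and by its name is the 3p arm of miR-17, had 15.9, 19.5 and 14.4 CPM in the controls and 16.5, 21.01 and 11.8 CPM after fasting. Over all rows of each arm, the log2 ratio of miR-17-5p to miR-17-3p, computed on CPM + 1, was 1.999, 2.38 and 2.16 in control and 3.14, 2.69 and 2.91 in fasted liver. All fasted ratios exceeded all control ratios, by 0.73 on average, and between 0.62 and 0.85 with 1 library left out. A common scaling of both arms within a library leaves such a ratio nearly as it is. Rows were joined by name and no genome was used, so they may stem from more than 1 hairpin. Of the 36 hairpin names of the table with both arms at 10 CPM or more, 22.2% had ratios that did not overlap between the groups, 8.33% with the fasted libraries above. Their differences ran from -1.71 to 1.94, with a median of -0.22. The difference was at least as large in size as that of miR-17 for 10 of the 36 names, 3 of them upward. For miR-20a, the only other member with enough counts in both arms, the ratios overlapped, at 1.74 ± 0.34 for the controls and 1.83 ± 0.72 for the fasted libraries (SD, n = 3). Its difference of 0.085 turned to -0.22 without fasted replicate 5, to -0.11 without control replicate 6 and to -0.0040 without fasted replicate 3.

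The other arm of miR-20a was divided over rows. ccr-miR-20a-3p_R-1_1ss22GA, the most abundant of them, had 12.95, 17.1 and 29.5 CPM in the controls and 13.2, 31.9 and 15.3 CPM after fasting, and its log2 fold change was 0.012 (SE 0.50; edgeR adjusted p = 0.991). It lay below 0 without control replicate 3 (-0.24), control replicate 4 (-0.061) or fasted replicate 4 (-0.50). ssa-miR-20a-3-3p_R-2 had 9.18, 12.2 and 10.03 CPM in the controls and 13.2, 16.3 and 14.6 CPM after fasting (0.51, SE 0.37; edgeR adjusted p = 0.641). All fasted values of the latter were higher, on between 10 and 33.5 counts per library.

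Marker levels that separated the groups were those of endothelium and pancreas. The pancreas markers miR-375, miR-216 and miR-217, with all 3 families present in every library, summed to 114 to 134 CPM in the controls and 174 to 185 CPM after fasting. The endothelial marker miR-126 had 8376 to 14527 CPM in the controls and 6104 to 8320 CPM after fasting. Both separated the groups on this scale, one in each direction. For the pancreas only the sum did so, and each of the 3 families overlapped when taken alone. As unscaled shares of the counts the summed pancreas markers still separated the groups. On that scale miR-375 and miR-216 also did so when taken alone, and miR-217 overlapped. Scaling by library totals put the median log2 fold change of all tested rows at 0.59. miR-126 overlapped as a share, at 0.638 to 1.28% in the controls and 0.547 to 1.36% after fasting. The part of the pancreas and endothelial markers in the values of the miR-17 family was not tested. Markers of erythrocytes, miR-451 with miR-144, had 2254 to 4290 CPM in the controls and 1263 to 7395 CPM after fasting, and the leucocyte markers miR-142, miR-150, miR-155 and miR-223 1075 to 2134 and 794 to 2215 CPM. The groups overlapped in both lists, and in the stromal, epithelial and muscle lists too, where miR-141 and miR-206 were at 0 in some libraries. The hepatocyte marker miR-122 had 398447 to 497187 CPM in the controls and 259801 to 418058 CPM after fasting. Its groups overlapped as well, with fasted replicates 3 and 5 below every control on this scale. As unscaled shares miR-122 had 35.1 to 40.1% in the controls and 35.7 to 42.6% after fasting. Fasted replicate 3 then had the highest share, and no fasted library lay below every control.

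The miR-18 family, whose seed AAGGTGC differs from that of miR-17, was the least abundant. dre-miR-18b-5p_1ss11TC had 37.2, 46.4 and 51.1 CPM in the controls and 52.1, 59.1 and 43.8 CPM after fasting. Fasted replicate 5 lay within the control range, and the log2 fold change was 0.20 (SE 0.33; edgeR adjusted p = 0.900). ssa-miR-18a-5p_R-1, with 6 to 30 counts per library, was too rare to test and had 8.01 ± 1.21 CPM in the controls and 8.15 ± 4.38 CPM after fasting (SD, n = 3). The seed as a whole had a log2 fold change of 0.16 (95% interval -0.63 to 0.94; edgeR adjusted p = 0.906), and -0.014 without control replicate 3. Of the other arm, dre-miR-18b-3p_L+1 had 0 to 9 counts per library.

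The miR-19 family, known for its part in mammalian lymphoma models, had overlapping levels in the 2 groups, with means of 1094 ± 424 CPM for the controls and 1049 ± 192 CPM for the fasted libraries (SD, n = 3). The 10 main-arm rows summed to 651, 1138 and 1495 CPM in the controls and 967, 1268 and 912 CPM after fasting, so that the control libraries spanned the fasted ones. The seed GTGCAAA had a log2 fold change of 0.012 (95% interval -0.99 to 1.01; edgeR adjusted p = 0.989). An interval this wide does not show that the levels were equal. Without control replicate 3, control replicate 4 or fasted replicate 4 the value was -0.28, -0.11 or -0.32, and without control replicate 6 it was 0.60.

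Members of the miR-19 family varied in different libraries. ssa-miR-19d-3p_R-1 had 249, 238 and 603 CPM in the controls and 228, 468 and 205 CPM after fasting, with control replicate 6 and fasted replicate 4 high. The log2 value of -0.28 (edgeR adjusted p = 0.901, SE 0.51) became 0.32 without control replicate 6, 0.083 without fasted replicate 5 and 0.25 with library totals. ssa-miR-19c-3p_R-1 had 101, 251 and 281 CPM in the controls and 219, 349 and 200 CPM after fasting (0.28, SE 0.46; edgeR adjusted p = 0.900), and lay below 0 without control replicate 3 (-0.059) or fasted replicate 4 (-0.025). A less abundant row of the same name, dre-miR-19c-3p_1ss23GT, had 36.4, 37.8 and 35.4 CPM in the controls and 28.9, 24.9 and 33.4 CPM after fasting. All its fasted values were lower (-0.33, SE 0.32; edgeR adjusted p = 0.724), but with library totals the value was 0.27. Thus 2 rows of miR-19c lay on opposite sides of 0. The other arm was rare, with ssa-miR-19c-5p_1ss21CT at 2 to 17 counts per library.

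Most miR-19a-3p counts stood on a row that starts 1 base earlier than the rows with the miR-19 seed. dre-miR-19a-3p_L+1R-2 has an extra T at its 5' end, so bases 2 to 8 read TGTGCAA in place of GTGCAAA, and it was the only row of the table with that seed. It had 182, 531 and 443 CPM in the controls and 318, 293 and 342 CPM after fasting, the fasted libraries lying inside the control range. Its log2 fold change was -0.28 (SE 0.43; edgeR adjusted p = 0.900), and 0.018 without control replicate 4 or 0.35 with library totals. The row ssa-miR-19a-3p_R+1, named after its values were seen, starts at the usual base and had 17.5, 31.7 and 33.9 CPM in the controls and 59.5, 31.1 and 59.8 CPM after fasting. Fasted replicate 4 lay within the control range and the other fasted libraries above it (0.86, SE 0.43; edgeR adjusted p = 0.606). In zebrafish and mammals the seed of miR-19 is the one read from the usual start.

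The early-start row took 91.2, 94.3 and 92.9% of the miR-19a-3p counts in the controls and 84.3, 90.4 and 85.2% after fasting. All fasted shares were below all control shares, but the 95% Wilson interval of fasted replicate 4, 87.2 to 92.9% of 417 counts, overlapped that of control replicate 3, 89.0 to 93.1% of 741 counts. Such intervals cover counting error only. Fasted replicate 3 had the lowest share (80.6 to 87.3%) and control replicate 4 the highest (91.6 to 96.0%). Of 20 shares of rows or members computed within the families, 2 did not overlap between the groups. They were the share of the early-start row and the share of miR-19c in the miR-19 counts. The latter was 21.2 to 25.4% in control and 25.6 to 29.5% in fasted libraries. Such shares were not computed for the rest of the table, so this count has no background beside it. In all, 30.9% of the main-arm miR-19 counts lay on rows without the family seed.

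**Figure D3:**
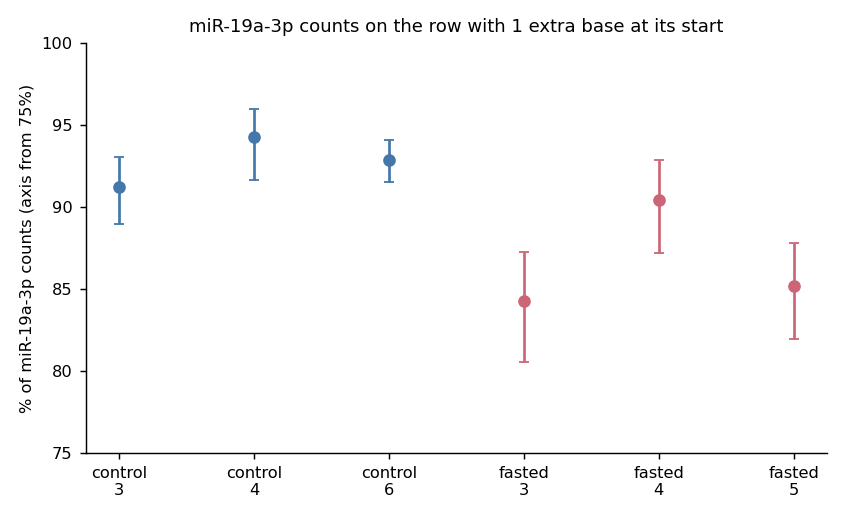
Share of the miR-19a-3p counts on the row with 1 extra base at its start (y axis, percent, from 75), by library; points are shares and whiskers 95% Wilson intervals. The control libraries lie at 91.2 to 94.3% and the fasted libraries at 84.3 to 90.4%, and the intervals of fasted replicate 4 and control replicate 3 overlap.

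The miR-25/92 family was the most abundant and the one in which the fasted libraries differed most from each other. Its 14 main-arm rows summed to 4250, 4909 and 6324 CPM in the controls and 6712, 9207 and 3217 CPM after fasting. Fasted replicates 3 and 4 were above the control range and fasted replicate 5 below it. The seed ATTGCAC had a log2 fold change of 0.28 (95% interval -0.71 to 1.28; edgeR adjusted p = 0.852), which was 0.65 without fasted replicate 5 and -0.14 without fasted replicate 4. The groups were not separated beyond this spread.

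The low family sum of fasted replicate 5 went with low miR-92b. ssa-miR-92b-3p had 1559, 2084 and 1774 CPM in the controls and 2472, 2984 and 524 CPM after fasting, so that fasted replicate 5 held less than any other library. Its mean was 1806 ± 264 CPM in the controls and 1993 ± 1298 CPM after fasting (SD, n = 3), at a log2 fold change of 0.14 (edgeR adjusted p = 0.958, SE 0.57). Without fasted replicate 5 the value was 0.75 and without fasted replicate 4 it was -0.29, and on the authors' normalized values it was -0.15. The length variant dre-miR-92b-3p_R+1, named after its values were seen, was also lowest in fasted replicate 5, at 59.8 CPM against 138 to 279 CPM in the other libraries.

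miR-92a and miR-25 were less uneven. ssa-miR-92a-3p, whose mammalian counterpart comes from both miR-17-92 and the X-linked cluster, had 1108, 1037 and 1713 CPM in the controls and 1512, 2397 and 1049 CPM after fasting (0.36, SE 0.41; edgeR adjusted p = 0.785), and -0.023 without fasted replicate 4. dre-miR-25-3p, the partner of miR-93 in mammals, had 741, 697 and 1343 CPM in the controls and 1236, 1581 and 887 CPM after fasting (0.41, SE 0.40; edgeR adjusted p = 0.724). In both, fasted replicate 5 lay within the control range and not below it. miR-92b took 48.8, 54.4 and 40.4% of the miR-92 counts of the main arm in control and 50.6, 43.0 and 25.3% after fasting. The Wilson interval of fasted replicate 5 was 23.8 to 26.8% of 3353 counts, and that of the next lowest library, control replicate 6, 39.7 to 41.2%. In fasted replicate 5 the erythrocyte markers were also at their highest, 7395 CPM against 1263 to 4290 CPM in the others. Both miR-451 and miR-144 were present in all libraries. On the CPM scale this was not particular to erythrocytes. The leucocyte, pancreas and muscle lists were at their highest in that library too, each slightly above the next highest library. As unscaled shares those lists were highest in fasted replicate 3. The erythrocyte share alone was highest in fasted replicate 5, at 0.893% against 0.113 to 0.358% in the others. The part of any of these marker lists in the share of miR-92b was not tested.

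**Figure D4:**
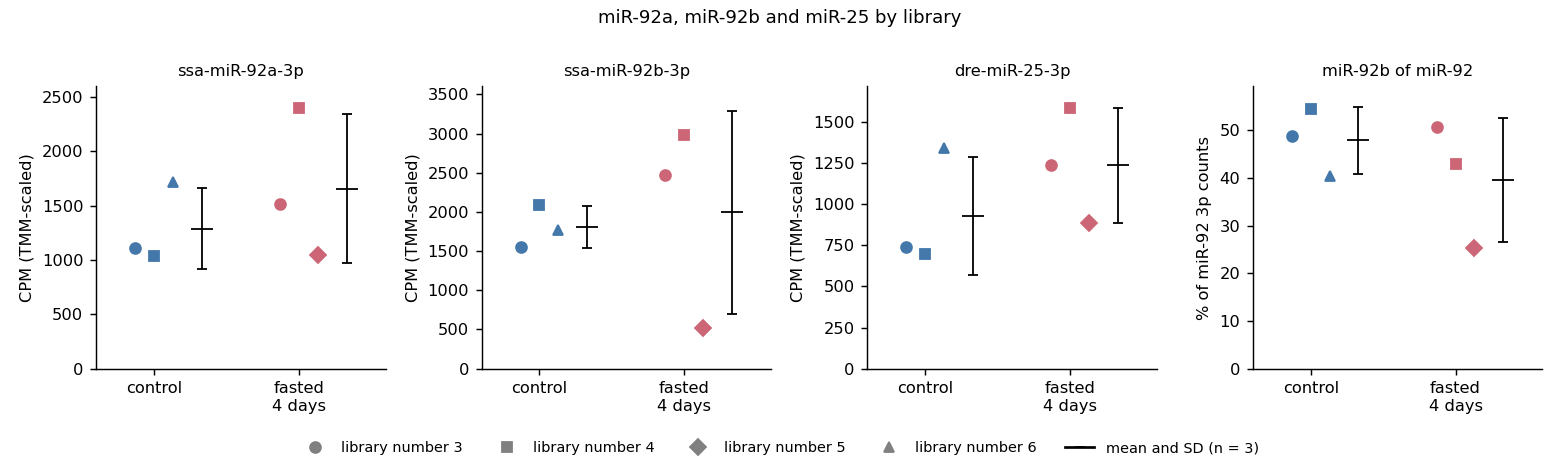
CPM of ssa-miR-92a-3p, ssa-miR-92b-3p and dre-miR-25-3p, and the share of miR-92b in the main-arm miR-92 counts (y axes, from 0), by library with mean and SD (n = 3). Fasted replicate 5, the diamond, is lowest of all for miR-92b, at 524 CPM and 25.3%, and within the control range for the other 2 rows.

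The 3' ends of miR-92a kept a steady makeup by comparison. The row with 1 more A, dre-miR-92a-3p_R+1, named after its values were seen, took 39.8% ± 3.59 of the main-arm miR-92a counts in the controls and 41.0% ± 3.08 after fasting (SD, n = 3), and the miR-92b row with 1 more T took 9.21% ± 1.80 and 9.50% ± 0.891 of the miR-92b counts. These differences were smaller than the spread between libraries. The other arm was represented by dre-miR-25-5p_2ss18GA19CT, with 9.16 ± 2.18 CPM in the controls and 9.75 ± 5.07 CPM after fasting (0.099, SE 0.49; edgeR adjusted p = 0.958; -0.10 without control replicate 3). miR-363, which in mammals comes from the X-linked cluster and shares the miR-92 seed, was nearly unseen: dre-miR-363-3p_R+1 had 15 counts in control replicate 6 and 0 in the other 5 libraries, where a count of 0 allows up to 3 counts, or 0.810 to 3.66 CPM.

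**Figure D5:**
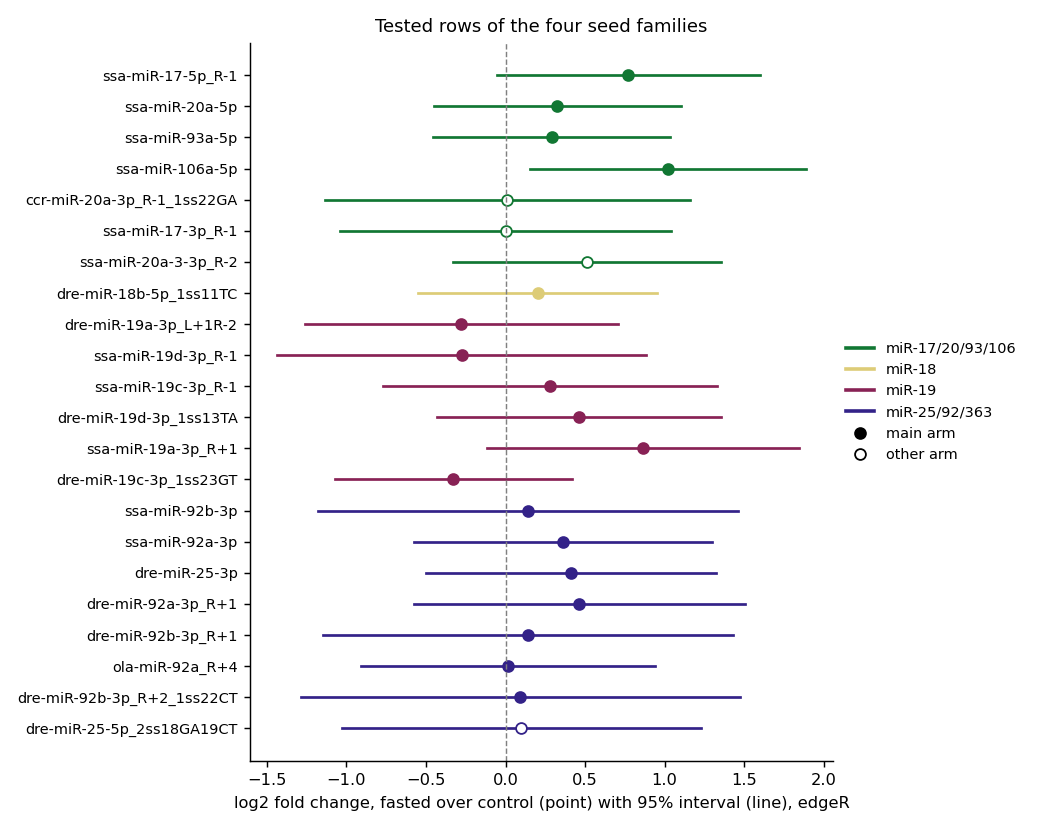
Log2 fold change of fasted over control liver (x axis) for the 22 tested member rows (y axis), points with 95% intervals from edgeR, filled for the main arm and open for the other arm, coloured by family. Of the intervals, only that of ssa-miR-106a-5p, 0.16 to 1.89, leaves out 0, and it was not past the adjusted threshold.

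Relatives of these seeds outside the chosen numbers gave little more. Beyond the members, 2 rows of the table, one of them predicted, carried a family seed, with 6.96 counts in all. No row used here was named miR-32, miR-367, miR-302 or miR-427. miR-430, known in zebrafish for clearing maternal messenger RNAs in the embryo, had 12 rows with 51.2 counts in all, too few to test. The miR-130, miR-301 and miR-454 group, listed beside them for a seed that overlaps in part with that of miR-19, had 21 rows, of which 13 were tested. Of these 9 lay above 0 and 4 below, against 50.2% of all tested rows above 0, and 2 had an unadjusted edgeR p under 0.05, against 8.41%. edgeR and DESeq2 each called 0 of the 13 after adjustment, with log2 fold changes around a median of 0.30, ranging from -1.29 to 1.105.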

How the data were processed

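The authors deposited a read summary, which holds counts of reads at each step as its headers name them, and a miRNA table. The table's deposited raw values are taken for expected counts, 14.4 to 20.8% of them in each library being fractional (tolerance 1e-06). No source used here says how reads were divided between sequences. The authors' normalized signal is the expected count over a library size parameter, per the file headers, with 0 written as 0.001. Reads under 15 or over 32 nt were set aside, per the file headers. The submitters' processing notes name Bowtie 1.1.1. RNA came from frozen liver by Trizol, per the labels. No genome was used, so no positions are given.

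Members and lists were chosen with earlier results of these data known. Rounded expected counts entered the quasi-likelihood F test of edgeR 4.0.16 (R 4.3.3) with TMM scaling, after filterByExpr (count of at least 10, total of at least 15), for all rows and for the table summed by seed and by mature name (prefix and variant suffix removed). Row TMM factors lay between 0.762 (control replicate 6) and 1.64 (fasted replicate 3). The 13 members with no arm in their name took the arm whose named rows share the longest stretch with them. Family sums, shares and arm ratios (pseudocount 1) got no test. Values per library are printed for the 3 most abundant rows of each family and the most abundant row of its other arm. They are also printed for tested rows with an unadjusted p under 0.05 or groups that did not overlap. The most abundant row stands for a mature name. ssa-miR-17-3p_R-1 and rows so marked were added after their values were seen. Alternatives used DESeq2 1.42.0, limma 3.58.1, other scalings, no count filter, each library left out and the replicate number as a block. Wilson intervals came from scipy 1.17.1. The fitting code was tested on simulated data. Between any 2 libraries chi-square per degree of freedom was at least 149.8, so none was a duplicate. The floor of 3 counts was 0.810 to 3.66 CPM.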

Additional observations from a re-analysis of the deposited data

How the results depend on the processing

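Members called numbered 0 under every alternative run on rows. Over the whole table, without the count filter 11 rows, 8 seeds and 11 mature names were called, with DESeq2 4, 3 and 5, and with 1 library left out 0 to 1 rows, 0 seeds and 0 to 1 names, the 1 without control replicate 3 in both. The replicate number as a block leaves 1 residual degree of freedom. Number 5 occurs only in the fasted and number 6 only in the control group. The group difference of the block fit therefore rests on replicates 3 and 4 alone. The block fit called 0 rows, 0 seeds and 54 of the 280 names tested, among them 3 of the 16 member names. Members were thus called at about the same share as all names. The 3 were miR-106a-5p at 1.59 (edgeR adjusted p = 0.017), miR-92a-3p at 1.08 (0.032) and miR-25-3p. Numbers 3 and 4 occur in both groups, but nothing in the labels says that they mark a shared fish, tank or day. With library totals the family differences of mean log2 CPM moved to 1.11 (miR-17), 0.74 (miR-18), 0.56 (miR-19) and 0.75 (miR-25/92), from 0.56, 0.19, 0.0053 and 0.20. Signs turned with library totals for dre-miR-19a-3p_L+1R-2 (0.35), ssa-miR-19d-3p_R-1 (0.25; 0.42 with the block) and dre-miR-19c-3p_1ss23GT (0.27), without the count filter for the miR-19 seed (-0.095) and ccr-miR-20a-3p_R-1_1ss22GA (-0.090), and with limma on the authors' values for ssa-miR-92b-3p (-0.15 with a pseudocount of 1 or 10). With 1 library left out, log2 fold changes ran from -0.50 to 0.46 for ccr-miR-20a-3p_R-1_1ss22GA, -0.62 to 0.018 for dre-miR-19a-3p_L+1R-2, -0.76 to 0.32 for ssa-miR-19d-3p_R-1, -0.059 to 0.58 for ssa-miR-19c-3p_R-1, -0.29 to 0.75 for ssa-miR-92b-3p, -0.023 to 0.75 for ssa-miR-92a-3p and -0.10 to 0.49 for dre-miR-25-5p_2ss18GA19CT, which had too few counts to be tested without fasted replicate 4. For seeds they ran from -0.014 to 0.45 (miR-18), -0.32 to 0.60 (miR-19) and -0.14 to 0.65 (miR-25/92), and for the joined names from -0.015 to 0.76 (miR-92a-3p) and -0.27 to 0.70 (miR-92b-3p). The miR-17-5p and miR-106a-5p rows and the miR-17 seed stayed above 0 in each alternative. This was not particular to them. The rows ssa-miR-20a-5p, ssa-miR-93a-5p, ssa-miR-20a-3-3p_R-2, dre-miR-18b-5p_1ss11TC and dre-miR-25-3p did so too. The 36 rows left untested had too few counts to pass the filter.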
